A study of Mus musculus with 6 samples.

Results

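Glycosaminoglycan chain synthesis and sulfation was described through 38 genes of the 49671 listed in the count tables. The genes were taken by name from a list of linker, heparan and chondroitin polymerase, epimerase, sulfotransferase and sulfatase genes. They were split into 8 classes of enzyme. The rule that took them uses no measured value, but the list was chosen with earlier results of these data known. RNA was sequenced from 3 GFP and 3 Tomato libraries of sorted cancer-associated fibroblasts (CAFs). FC1199 mouse pancreatic cancer cells had been injected into the pancreas of C57BL/6J hosts that carried both the Rosa-mTmG reporter and Fabp4-Cre, at 8 weeks of age, and the tumours had grown for 4 weeks without any intervention. Digested tumours were sorted for Podoplanin, and the GFP+ cells (labelled as stellate cell-derived CAFs) were set against the Tomato+ cells (labelled as CAFs of non-stellate origin).

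Both fractions share the tumour line, the reporter and Fabp4-Cre. The reporter turns from Tomato to GFP in any cell, and in the progeny of any cell, in which the Fabp4 promoter has driven Cre, so GFP records past activity of that promoter and not cell identity by itself. All tumours came from 1 cancer cell line. Total counts per library were 35580848 to 40213293 in GFP and 33378377 to 42154933 in Tomato. Summed over 9 fibroblast genes (Col1a1 and Col1a2 among them), the level was 64042 to 72248 CPM (counts scaled to library size) in GFP libraries and 30005 to 44184 CPM in Tomato libraries, and 5 of these genes were higher in GFP and 0 lower. Without Col1a1 and Col1a2, which encode the chains of collagen I, the other 7 summed to 12965, 14349.7 and 11145 CPM in GFP libraries and 13806, 13172 and 10271 CPM in Tomato libraries, ranges that overlap. Markers of other cells moved with the fraction as well. Summed mesothelial markers (10 genes, Msln and Upk3b among them) stood at 55.3, 87.5 and 118 CPM in GFP libraries, against 1511, 1692 and 1419.8 CPM in Tomato libraries, and 10 of 10 were lower in GFP (9 of 10 with the replicate number as a block). Summed macrophage and monocyte markers were at 139.6 to 221 CPM in GFP and 985 to 2481 CPM in Tomato, with 10 of 10 lower in GFP. Neutrophil markers summed to 1.67 to 3.3 CPM in GFP and 21.8 to 31 CPM in Tomato, and 5 of 5 tested were lower. Lymphatic endothelial markers summed to 309 to 492 CPM in GFP and 22.1 to 77.5 CPM in Tomato, with 5 of 5 tested higher. Pan-endothelial markers summed to 118 to 173 CPM in GFP and 58.1 to 77.3 CPM in Tomato, with 6 of 7 higher. Carcinoma epithelial markers summed to 70.2 to 89.3 CPM in GFP and 146 to 189.7 CPM in Tomato, with 3 of 6 lower and 3 not passing. Most of the gap in this sum came from 1 keratin gene, Krt7. It had 10.0, 10.2 and 12.6 CPM in GFP libraries, against 77.3, 82.3 and 86.6 CPM in Tomato libraries. Pericyte markers summed to 63.6 to 104 CPM in GFP and 56.4 to 66.3 CPM in Tomato, with 3 of 6 higher and 1 lower (4 higher with the block). Lymphocyte markers were each under 1 CPM, and no marker was at 0 in all libraries. The part of these other cells in the results below was not tested.

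Heparan sulfate and chondroitin sulfate are long, unbranched sugar chains carried by proteoglycans such as syndecans, glypicans, versican and decorin. Both start on the same short linker, are lengthened by different polymerases in the Golgi, and are then modified by epimerases and sulfotransferases, whose pattern sets which growth factors, chemokines and proteases bind the chain. Dermatan sulfate is chondroitin sulfate in which an epimerase has converted part of the glucuronic acid to iduronic acid. In fibroblast-rich tumours these chains are a main component of the matrix.

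Of the 38 genes, far more were higher than lower in GFP libraries. By edgeR's quasi-likelihood test with Benjamini-Hochberg adjustment over the 15608 genes tested (adjusted p under 0.05), 18 of the 38 were higher in GFP, 2 were lower and 18 did not pass. The 18 are 47.4% of the members, where 13.1% of all genes tested were higher, and the 2 are 5.26% of the members, where 15.7% of all genes were lower. All 38 passed the filter on low counts. The median log2 fold change of the 38, GFP over Tomato, was 0.37, against 0.00 for all genes tested, and 33 of 38 were above 0, against 50.4% of all genes. In 21 members every GFP library was above every Tomato library (23.4% of all genes), and in 3 every GFP library was below (25.2% of all genes). The individual changes were small: of the 18 higher members the highest log2 fold change was 0.75 (Chsy3), and 1 member, Chst4, lay far outside this range at -6.26. In bulk RNA, more cells that express a gene and more RNA of that gene per cell cannot be told apart.

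**Figure D1:**
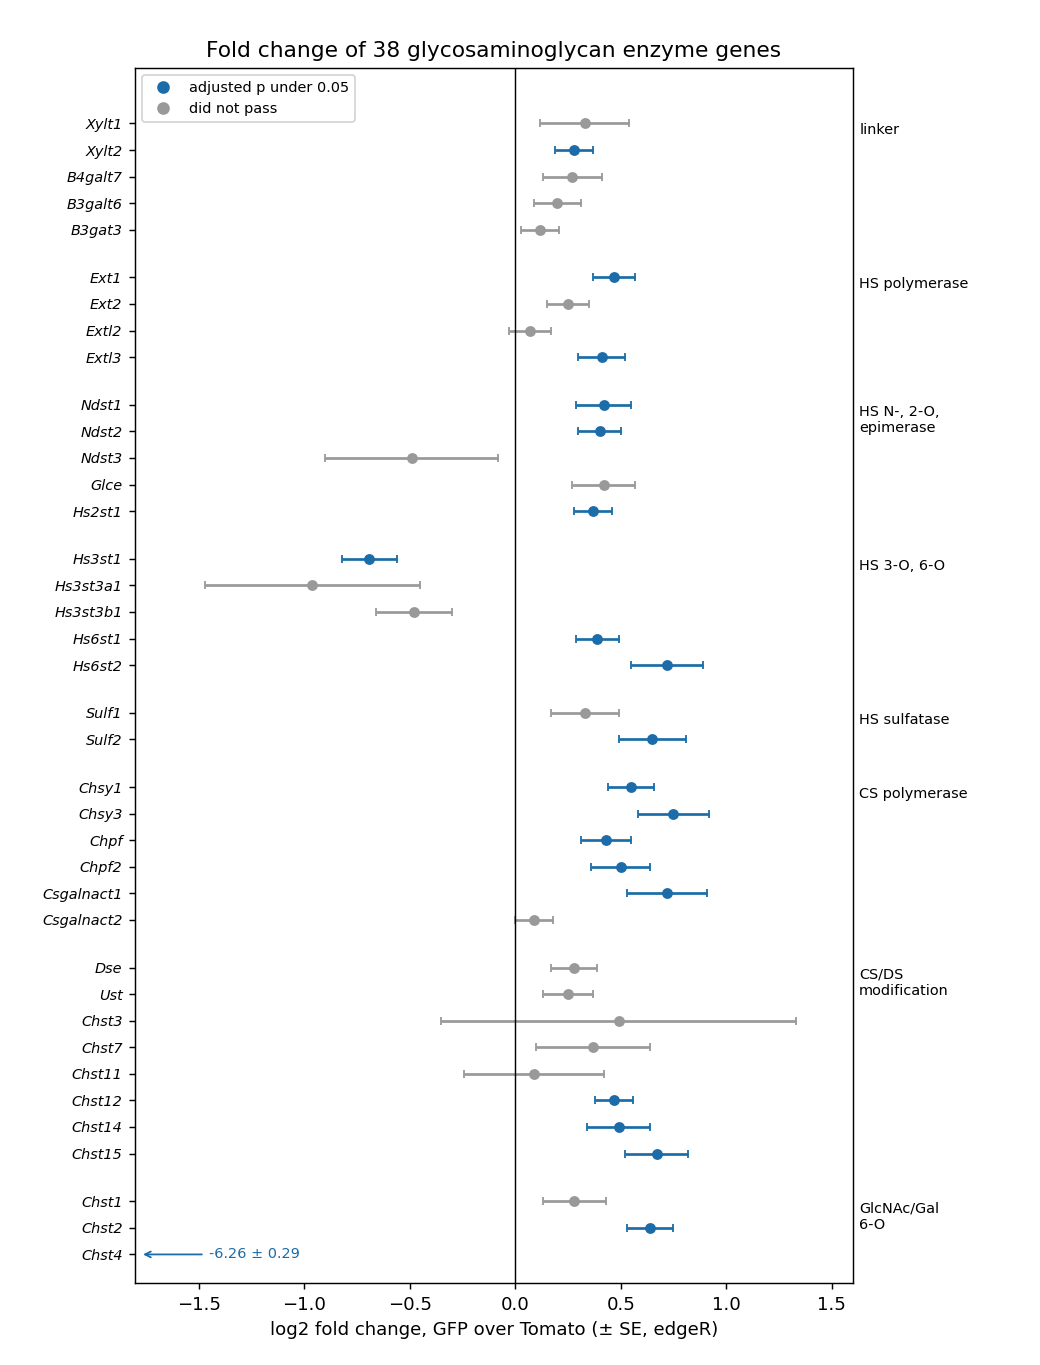
Log2 fold change (GFP over Tomato, edgeR, horizontal axis, bars: SE) of the 38 genes by class, in blue where the adjusted p was under 0.05. Most points lie between 0 and 0.75, and Ndst3 and the 3 heparan 3-O-sulfotransferase genes among the members lie below 0. Chst4 at -6.26 is drawn as an arrow because it lies off the axis.

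**Figure D2:**
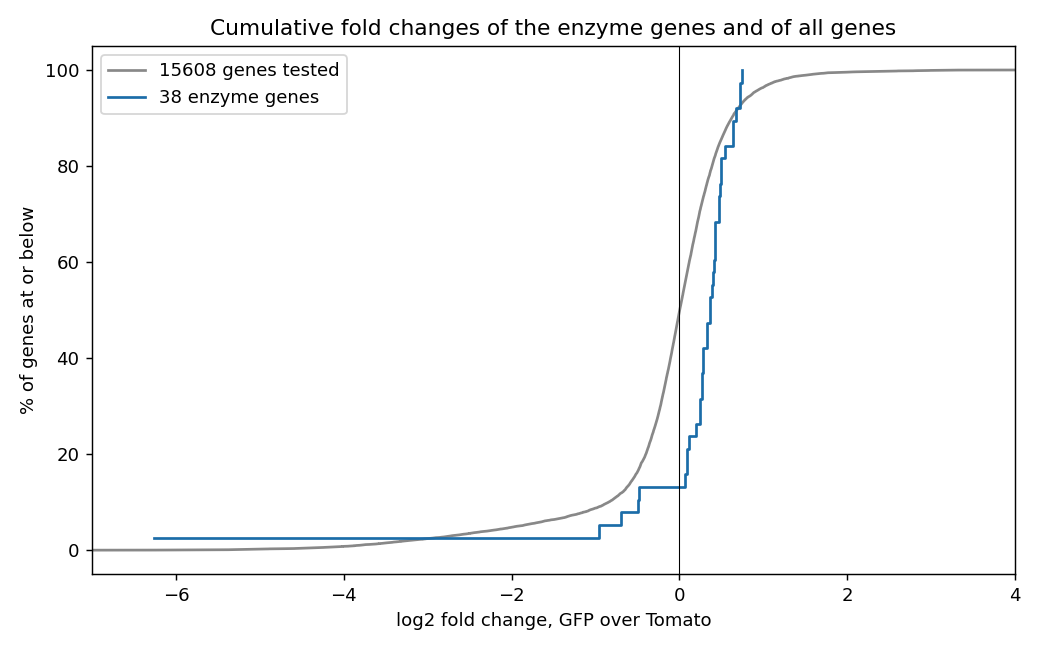
Cumulative share (%) of the 38 enzyme genes and of the 15608 genes tested by log2 fold change, GFP over Tomato. The step curve of the enzyme genes lies to the right of the curve of all genes over most of the range and has 1 step at -6.26, Chst4.

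Several of these calls were near the threshold. When each library was left out in turn, 8 of the 20 calls stood in all 6 fits (Ext1, Hs3st1, Chsy1, Chsy3, Chst12, Chst15, Chst2 and Chst4), and 12 were lost in at least 1. The number of higher members was 9, 13 and 8 without GFP replicate 1, 2 and 3, and 18, 8 and 12 without Tomato replicate 1, 2 and 3. Over the 15956 to 16080 genes tested in these fits, 920, 1409 and 1195 were higher without the same GFP replicates. Without the Tomato replicates, in the same order, 2392, 833 and 1471 were higher, against 2049 of 15608 in the main fit. Scaled by library size alone, 8 members were higher and 3 lower (7.24% and 24.7% of all genes), and the higher calls lost were those of Xylt2, Extl3, Ndst1, Ndst2, Hs2st1, Hs6st1, Chpf, Chpf2, Csgalnact1 and Chst14. In that scaling the median of all genes was -0.16, so that the members' median of 0.20 lay 0.36 above it, near the 0.37 of the main scaling. Tomato replicate 3 was the lowest Tomato library in 26 of the 38 members, against 39.6% of all genes, and without it the members' median was 0.31. With the replicate number as a block, 20 members were higher and 3 lower (20.1% and 20.9% of all genes). With offsets for gene length and GC content, 23 were higher and 1 lower (18.5% and 10.2% of all genes), and with both 26 were higher and 2 lower (26.7% and 13.5% of all genes).

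The linker that starts every chain is built by xylosyltransferases (Xylt1, Xylt2), the galactosyltransferases B4galt7 and B3galt6, and the glucuronyltransferase B3gat3. Of these 5 genes 1 was higher in GFP and 0 lower, with a median log2 fold change of 0.27. Beside this and the later class counts, 13.1% of all genes tested were higher and 15.7% lower. Xylt2 had 31.6, 30.1 and 30.6 CPM in GFP libraries, against 25.1, 26.5 and 24.5 CPM in Tomato libraries. The groups did not overlap, and the log2 fold change was 0.28 ± 0.09 (SE, edgeR adjusted p = 0.0418). That call was lost without any 1 of the 6 libraries (adjusted p 0.0679 to 0.116). In TPM, which scales counts by exon length as well as library size, B3gat3 was the most abundant of the linker genes, at 42.2 ± 2.12 TPM in GFP and 37.8 ± 1.46 TPM in Tomato (SD, n = 3 each). B3gat3 had 31.4, 35.7 and 33.8 CPM in GFP and 31.3, 29.5 and 32.4 CPM in Tomato, ranges that overlap, and did not pass (log2 fold change 0.12 ± 0.09, edgeR adjusted p = 0.364). Xylt1, B4galt7 and B3galt6 had log2 fold changes of 0.33, 0.27 and 0.20 and did not pass. Xylt2 made up 94.6% ± 1.23 of xylosyltransferase TPM in GFP and 94.8% ± 0.437 in Tomato.

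Heparan sulfate polymerisation rests on the copolymerase Ext1 and Ext2, on Extl3, which adds the first N-acetylglucosamine and so commits the chain to heparan sulfate, and on the related transferase Extl2. Of the 4 genes 2 were higher in GFP and 0 lower. Ext1 had 271, 283 and 263 CPM in GFP libraries, against 208, 204 and 176 CPM in Tomato libraries, with no overlap (log2 fold change 0.47 ± 0.10, edgeR adjusted p = 0.00933). Ext2, the most abundant per length at 117 ± 8.29 TPM in GFP and 95.1 ± 10.7 TPM in Tomato, had 269, 252 and 267 CPM in GFP and 241, 226 and 195 CPM in Tomato. Its groups did not overlap either, but the change of 0.25 ± 0.10 did not pass (edgeR adjusted p = 0.0976). Extl3 was higher by 0.41 ± 0.11 on the log2 scale (edgeR adjusted p = 0.0235), a call that was lost in 4 of the 6 fits without 1 library (GFP replicates 1 and 3, Tomato replicates 2 and 3, adjusted p 0.0506 to 0.0836). Extl2 had 61.9 to 68.8 CPM in GFP and 54.7 to 66 CPM in Tomato and did not pass (0.07 ± 0.10). Within the summed TPM of the 4 genes, Ext1 held 33.9% ± 1.62 in GFP and 30.1% ± 0.348 in Tomato, and Extl2 held 18.9% ± 0.614 in GFP and 22.3% ± 0.366 in Tomato. Neither share overlapped between the groups.

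The first modifications of heparan sulfate are N-deacetylation and N-sulfation by the Ndst enzymes, epimerisation of glucuronic to iduronic acid by Glce, and 2-O-sulfation of the iduronic acid by Hs2st1. Of the 5 genes 3 were higher in GFP and 0 lower, with a median log2 fold change of 0.40. Hs2st1, the most abundant at 42.9 ± 3.03 TPM in GFP and 32.2 ± 2.88 TPM in Tomato, had 112, 104 and 109 CPM in GFP libraries, against 81.1, 91.5 and 78.7 CPM in Tomato libraries. Every GFP library was above every Tomato library, with a log2 fold change of 0.37 ± 0.09 (edgeR adjusted p = 0.0178), and the call was lost without GFP replicate 1 or 3 (adjusted p 0.0567 to 0.0638). Ndst1 was higher by 0.42 ± 0.13 (edgeR adjusted p = 0.0385) and Ndst2 by 0.40 ± 0.10 (edgeR adjusted p = 0.0209). Ndst1 was lost in every fit without 1 library other than that without Tomato replicate 1 (adjusted p 0.0571 to 0.128), and Ndst2 in those without GFP replicate 1, 2 or 3 (adjusted p 0.0591 to 0.0609). Glce changed by 0.42 ± 0.15 and did not pass (edgeR adjusted p = 0.0699, or 0.047 with no filter on low counts). Ndst3 was at 0.282 to 0.457 CPM in GFP and 0.38 to 0.839 CPM in Tomato, and did not pass.

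At the late steps of heparan sulfate modification the sulfotransferase families differed in sign. The 3-O-sulfotransferase Hs3st1, known for making the antithrombin-binding site of heparin and heparan sulfate, had 43.6, 43.2 and 52.7 CPM in GFP libraries, against 66.4, 69.8 and 88.8 CPM in Tomato libraries. All GFP libraries lay below all Tomato libraries, at means of 46.5 ± 5.34 CPM in GFP and 75.0 ± 12.0 CPM in Tomato (SD, n = 3 each), and Hs3st1 was lower in GFP by a log2 fold change of -0.69 ± 0.13 (edgeR adjusted p = 0.00745). With offsets for gene length and GC content the change was -0.35 and the adjusted p was 0.0544, or 0.00664 with the replicate number as a block in the same fit. It was also the most abundant gene of its class, at 68 ± 10.1 TPM in GFP and 106 ± 16.2 TPM in Tomato. The other 3-O-sulfotransferases among the members were low. Hs3st3b1 had 2.93, 3.25 and 2.99 CPM in GFP and 3.66, 4.89 and 4.21 CPM in Tomato, with no overlap, and did not pass (-0.48 ± 0.18, edgeR adjusted p = 0.0728), but did with the replicate block (-0.47, adjusted p = 0.0431). Hs3st3a1 was at 0.225 to 0.418 CPM in GFP and 0.257 to 0.932 CPM in Tomato and did not pass. Of the summed TPM of these 3-O-sulfotransferase members, Hs3st1 held 96.7% in GFP and 97.0% in Tomato.

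Both 6-O-sulfotransferase genes of heparan sulfate among the members, whose products sulfate the glucosamine residues that take part in fibroblast growth factor signalling, were higher in GFP. Hs6st2 had 54.8, 46.2 and 72.9 CPM in GFP libraries, against 36.5, 31.2 and 38 CPM in Tomato libraries. All 3 GFP values were above the highest Tomato value, and GFP replicate 3 was the highest of them (log2 fold change 0.72 ± 0.17, edgeR adjusted p = 0.015, or 0.0628 without Tomato replicate 2). Hs6st1 was higher by 0.39 ± 0.10 (edgeR adjusted p = 0.0194), and was lost without GFP replicate 1 or 3 or Tomato replicate 2 (adjusted p 0.0613 to 0.064). Of the summed TPM of the 2 genes, Hs6st2 held 47.6% ± 5.57 in GFP and 42.5% ± 4.21 in Tomato, shares that overlap. For the 5 genes of 3-O- and 6-O-sulfation together, 2 were higher and 1 lower (2 lower with the replicate block), and their summed level was 121 ± 17.6 TPM in GFP and 143 ± 14.9 TPM in Tomato, with overlap.

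Sulf1 and Sulf2 are secreted endosulfatases that remove 6-O-sulfate from finished heparan sulfate outside the cell, so they act against the step of Hs6st1 and Hs6st2. Sulf2 had 514, 422 and 440 CPM in GFP libraries, against 345, 306 and 228 CPM in Tomato libraries, with means of 459 ± 49 CPM in GFP and 293 ± 59.4 CPM in Tomato (SD, n = 3 each). The groups did not overlap, and Sulf2 was higher by 0.65 ± 0.16 (edgeR adjusted p = 0.0182), which no longer passed without GFP replicate 1 or Tomato replicate 2 (adjusted p 0.0588 to 0.0711). At 254 ± 32.1 TPM in GFP and 157 ± 32.7 TPM in Tomato it was the more abundant sulfatase. Sulf1 had 353 to 456 CPM in GFP and 267 to 379 CPM in Tomato, ranges that overlap, and did not pass (0.33 ± 0.16, edgeR adjusted p = 0.137). Sulf2 held 67.8% ± 2.34 of the pair's TPM in GFP and 62.7% ± 0.795 in Tomato, without overlap.

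Of the 6 chondroitin sulfate polymerase genes 5 were higher in GFP and 0 lower, with a median log2 fold change of 0.52. Chsy1 and Chsy3 are chondroitin synthases, Chpf and Chpf2 are the chondroitin polymerising factors that work with them, and Csgalnact1 and Csgalnact2 add the first N-acetylgalactosamine and so commit the chain to chondroitin sulfate. Chsy1 had 65.7, 65.3 and 80.5 CPM in GFP libraries, against 46.9, 51 and 46.8 CPM in Tomato libraries. Its groups were well apart, at means of 70.5 ± 8.69 CPM in GFP and 48.2 ± 2.40 CPM in Tomato (change on the log2 scale 0.55 ± 0.11, edgeR adjusted p = 0.00748). Chsy3, a minor synthase, had 10.3, 11 and 15.3 CPM in GFP libraries, against 7.27, 7.74 and 6.73 CPM in Tomato libraries (0.75 ± 0.17, edgeR adjusted p = 0.0134). Chpf, the most abundant at 176 ± 30 TPM in GFP and 127 ± 11.3 TPM in Tomato, had 179, 205 and 241 CPM in GFP and 159, 165 and 141 CPM in Tomato. It was higher by 0.43 ± 0.12 (edgeR adjusted p = 0.0332), and its call was lost without GFP replicate 2 or 3 or Tomato replicate 2 or 3 (adjusted p 0.0745 to 0.106).

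Csgalnact1 had 64.3, 66.7 and 97.4 CPM in GFP libraries, against 52.3, 49.8 and 36.5 CPM in Tomato libraries. Its groups did not overlap, although GFP replicate 3 and Tomato replicate 3 stood at the far ends (0.72 ± 0.19, edgeR adjusted p = 0.0281), and the call was lost without either of these or without Tomato replicate 2 (adjusted p 0.061 to 0.0649), and with no filter on low counts (0.0544). Csgalnact2 had 80.3 to 84.9 CPM in GFP and 70.8 to 81.9 CPM in Tomato and did not pass (0.09 ± 0.09, edgeR adjusted p = 0.472). Csgalnact1 thus held 49.3% ± 6 of the pair's TPM in GFP and 38.8% ± 3.02 in Tomato, without overlap. Chpf2 had 86.9, 82.9 and 90 CPM in GFP libraries and 68.5, 67.4 and 47.6 CPM in Tomato libraries, and was higher by 0.50 ± 0.14 (edgeR adjusted p = 0.028). Its call was lost without any 1 GFP library or without Tomato replicate 2 (adjusted p 0.0533 to 0.0806). Of the Chpf2 exon length, 45.9% is shared with Smarcd3 on the other strand, so part of its reads is uncertain. In 1 strand column its log2 fold change was 0.42 (edgeR adjusted p = 0.0247). The strand columns were nearly equal, so that column cannot separate reads of Chpf2 from those of Smarcd3 and does not settle this.

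**Figure D3:**
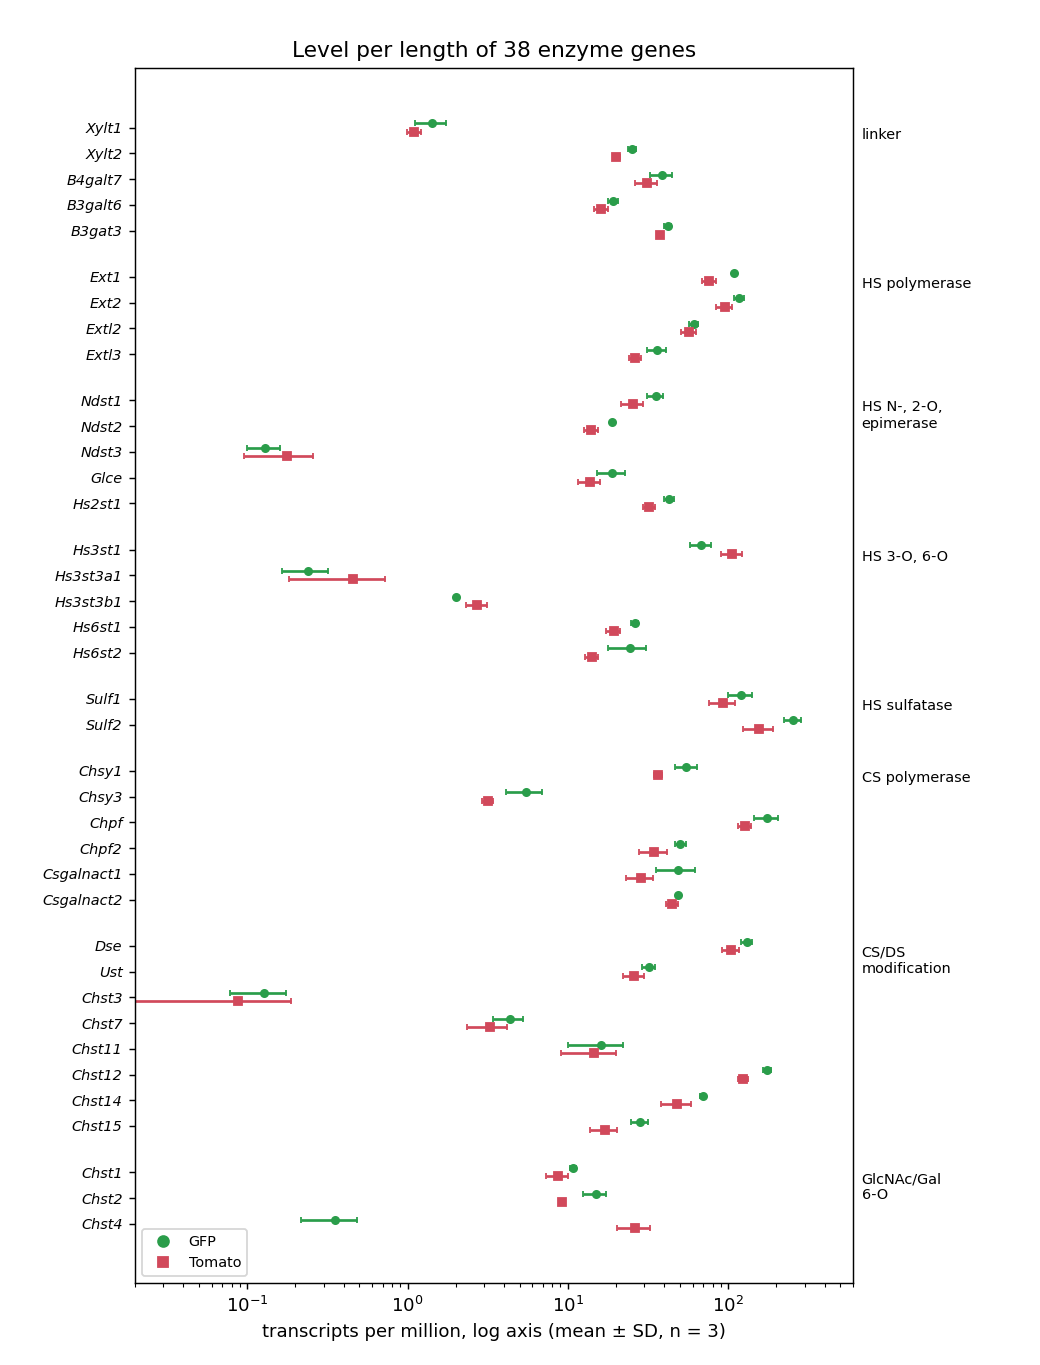
Level in TPM (log axis, mean ± SD, n = 3 per group) of the 38 genes by class. Sulf2, Chpf and Chst12 are among the most abundant, the GFP points lie to the right in most rows, and Hs3st1 and Chst4 are the called genes whose GFP point lies to the left. The lower bar of Chst3 in Tomato runs off the axis because 1 library had no read.

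Modification of chondroitin and dermatan sulfate was covered by 8 genes, of which 3 were higher in GFP and 0 lower, with a median log2 fold change of 0.42. The 3 are sulfotransferases that act on N-acetylgalactosamine. Chst12, a chondroitin 4-O-sulfotransferase and the most abundant gene of the class at 176 ± 10.2 TPM in GFP and 124 ± 9.38 TPM in Tomato, had 119, 137 and 129 CPM in GFP libraries, against 98.8, 93.1 and 85.7 CPM in Tomato libraries. The groups did not overlap (log2 fold change 0.47 ± 0.09, edgeR adjusted p = 0.00849). Chst15 adds a 6-O-sulfate to units that already carry the 4-O-sulfate and so makes the disulfated E unit. It had 65.7, 55.5 and 53.9 CPM in GFP libraries, against 42.2, 38.6 and 29 CPM in Tomato libraries, with no overlap (0.67 ± 0.15, edgeR adjusted p = 0.0123). Chst14, the dermatan 4-O-sulfotransferase, was higher by 0.49 ± 0.15 (edgeR adjusted p = 0.0398), a call lost in every fit without 1 library other than that without Tomato replicate 1 (adjusted p 0.0578 to 0.118). For Chst15, 17.9% of the exon length is shared with the antisense gene Gm10584, and in 1 strand column the log2 fold change was 0.65 (edgeR adjusted p = 0.0079). Because the strand columns were nearly equal, that column cannot separate the reads of Chst15 from those of Gm10584.

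The remaining genes of the class did not pass. Dse, the dermatan epimerase, had 209, 190 and 199 CPM in GFP and 181, 169 and 144 CPM in Tomato, and Ust, the uronyl 2-O-sulfotransferase, had 49.6, 44.6 and 42 CPM in GFP and 41.5, 40.9 and 31.9 CPM in Tomato. In both, every GFP library was above every Tomato library. Their log2 fold changes were 0.28 ± 0.11 for Dse (edgeR adjusted p = 0.0784) and 0.25 ± 0.12 for Ust (edgeR adjusted p = 0.152), and with the replicate block both passed (adjusted p = 0.0328 for Dse and 0.0384 for Ust), which brings the class to 5 higher. Chst11, a second chondroitin 4-O-sulfotransferase, varied more between replicates than between groups, at 18.5, 26 and 37.5 CPM in GFP and 18.5, 21.7 and 36.9 CPM in Tomato (0.09 ± 0.33). The chondroitin 6-O-sulfotransferases were low: Chst7 was at 2.29 to 3.46 CPM in GFP and 1.54 to 2.67 CPM in Tomato, and Chst3 at 0.149 to 0.31 CPM in GFP and 0 to 0.407 CPM in Tomato. The library at 0, Tomato replicate 2, had no Chst3 read, which allows up to 3 counts or 0.0772 CPM, counting error only. Within the 3 4-O-sulfotransferases among the members, Chst12 held 67.4% of the TPM in GFP and 66.3% in Tomato.

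**Figure D4:**
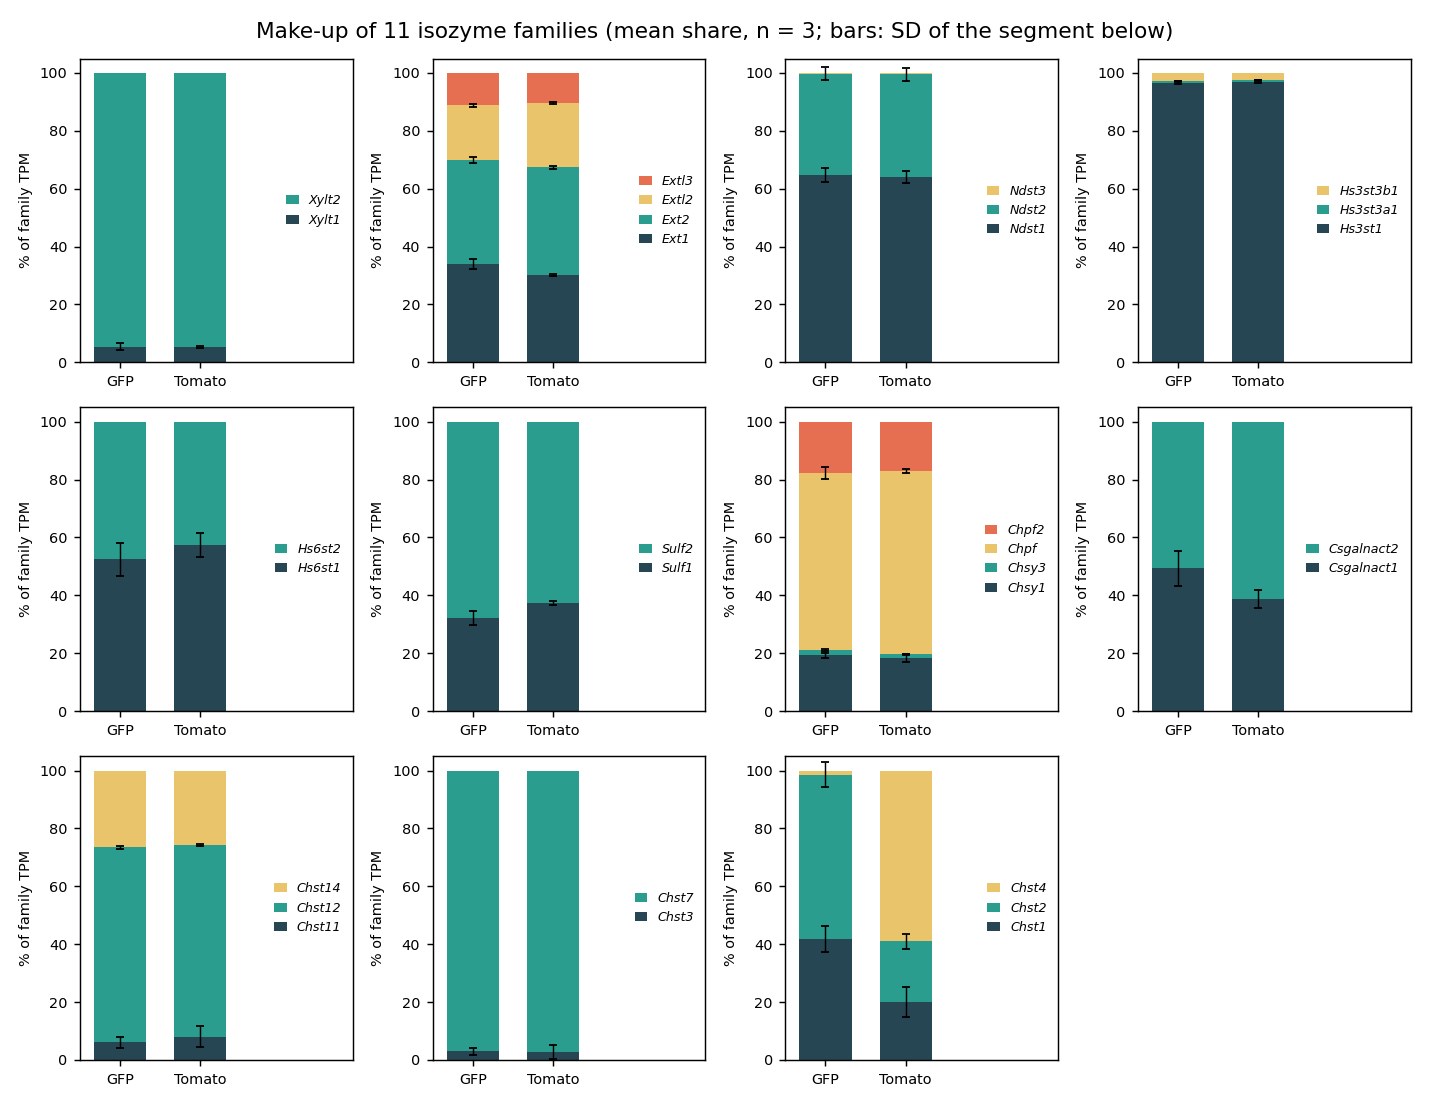
Mean share (%) of each gene in the summed TPM of its isozyme family, in GFP and in Tomato (n = 3 libraries each), with the SD of the segment below each bar. In the family of Chst1, Chst2 and Chst4, Chst4 holds 1.34% in GFP and 59.0% in Tomato, and in the family of Sulf1 and Sulf2, Sulf2 holds 67.8% in GFP and 62.7% in Tomato.

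A wide split lay among the 3 sulfotransferases that add 6-O-sulfate to galactose or N-acetylglucosamine of keratan sulfate and of mucin-type and N-linked glycans. Chst1 sulfates galactose, and Chst2 and Chst4 sulfate N-acetylglucosamine. In lymph nodes, Chst2 and Chst4 are known for making the sulfated ligands of the homing receptor L-selectin in high endothelial venules. The promoters of Chst4 and of Hs3st1 are shown because these are the 2 lower members, and that of Chst2 because it is the higher member of the same family as Chst4. They are RefSeq sequences of build GRCm38.p6, minus strand, 250 bases before to 50 bases after the start, at chr8:110039285-110039584 (Chst4), chr9:95407221-95407520 (Chst2) and chr5:39644582-39644881 (Hs3st1). Capitals mark matches to any of 4 motifs searched on both strands: AP-1 (TGAGTCA), the GC box (GGGCGG), TEAD (GGAATG) and the TATA box (TATAAA).
Chst4: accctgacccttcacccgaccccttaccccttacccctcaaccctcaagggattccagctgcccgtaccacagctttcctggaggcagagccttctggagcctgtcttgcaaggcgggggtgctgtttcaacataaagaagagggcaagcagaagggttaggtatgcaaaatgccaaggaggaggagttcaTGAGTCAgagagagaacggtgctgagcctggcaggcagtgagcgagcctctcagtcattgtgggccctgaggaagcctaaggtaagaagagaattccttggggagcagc
Chst2: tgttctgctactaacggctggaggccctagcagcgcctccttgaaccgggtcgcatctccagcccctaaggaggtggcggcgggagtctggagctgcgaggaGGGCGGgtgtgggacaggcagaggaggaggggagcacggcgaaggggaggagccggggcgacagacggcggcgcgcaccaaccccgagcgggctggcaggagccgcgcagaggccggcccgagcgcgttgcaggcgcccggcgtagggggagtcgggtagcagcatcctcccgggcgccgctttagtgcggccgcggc
Hs3st1: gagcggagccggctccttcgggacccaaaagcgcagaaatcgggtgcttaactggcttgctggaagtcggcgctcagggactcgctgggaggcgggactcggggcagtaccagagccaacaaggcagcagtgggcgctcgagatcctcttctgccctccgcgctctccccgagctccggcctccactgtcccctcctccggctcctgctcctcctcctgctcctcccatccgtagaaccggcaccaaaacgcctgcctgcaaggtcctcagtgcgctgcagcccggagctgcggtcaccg

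The Chst4 promoter holds 5 CpG dinucleotides and 56.3% G and C. The Chst2 promoter holds 34 CpG and 73% G and C, and that of Hs3st1 24 CpG and 67%, where the median of all 32851 promoters in the table is 7 CpG. The only capitals in the Chst4 sequence are 1 AP-1 match, 59 bases before the start, and 5.2% of all promoters hold that motif. The table held 38 promoters of 31 members, some with several starts, and this motif was in 1 of them. The Chst2 sequence has 1 GC box, 148 bases before the start, a motif in 23 of these 38 and in 35.7% of all promoters. None of the 4 motifs is in the Hs3st1 window. TEAD letters are in 8 of these 38 (14.7% of all) and TATA letters in 2 (13.6% of all). These matches describe letters only, and the RefSeq starts differ from the ends of the GENCODE models. On the minus strand these models begin at 39755475 for Hs3st1 and 110039740 for Chst4, so both windows lie inside them. The window of Chst2 lies upstream of its model, which begins at 95406722. Which start was used in these cells was not tested.

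Chst4 (GENCODE, GRCm38, chromosome 8, 110029153 to 110039740) had 0.161, 0.239 and 0.338 CPM in GFP libraries, against 22.8, 20.1 and 14.3 CPM in Tomato libraries. These rest on 6, 8 and 12 reads in GFP and 977, 781 and 526 reads in Tomato. The means were 0.246 ± 0.0885 CPM in GFP and 19.0 ± 4.35 CPM in Tomato (SD, n = 3 each), and Chst4 was lower in GFP by a log2 fold change of -6.26 ± 0.29 (edgeR adjusted p = 8.89e-06). Over all alternatives that change stayed between -6.77 and -5.97. The mesothelial markers were also lower in GFP. Per 1000 CPM of their sum, Chst4 stood at 2.92, 2.73 and 2.86 CPM in GFP and 15.1, 11.9 and 10.1 CPM in Tomato. The log2 fold changes of these markers ran from -5.46 to -2.84, so this ratio depends on which of them are summed. The part of mesothelial or other cells in the Chst4 difference was not tested.

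Chst2 went the other way. It had 34, 28.9 and 37.5 CPM in GFP libraries, against 21.3, 21.2 and 21.7 CPM in Tomato libraries, and the Tomato values lay close together. The means were 33.5 ± 4.33 CPM in GFP and 21.4 ± 0.286 CPM in Tomato, and Chst2 was higher by 0.64 ± 0.11 (edgeR adjusted p = 0.00462). Chst1 had 8.34 to 9.31 CPM in GFP and 6.35 to 8.74 CPM in Tomato and did not pass (0.28 ± 0.15, edgeR adjusted p = 0.188). Per length, Chst4 held 1.34% ± 0.451 of the TPM of the 3 genes in GFP and 59.0% ± 7.75 in Tomato, while Chst2 held 56.8% ± 4.33 in GFP and 21.0% ± 2.54 in Tomato. The summed level of the 3 was 26.1 ± 2.44 TPM in GFP and 44.2 ± 4.98 TPM in Tomato, with every GFP library below every Tomato library.

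The enzymes that work beside Chst2 and Chst4 on L-selectin ligands also differed in sign. Of 6 tested, 2 were higher and 2 lower, with a median log2 fold change of 0.04, and Fut7 was too low to be tested. Of all genes tested, 13.1% were higher and 15.7% lower. Fut4, a fucosyltransferase, had 13.2, 14.9 and 17.7 CPM in GFP libraries, against 7.48, 8.8 and 6.95 CPM in Tomato libraries (0.98 ± 0.15, edgeR adjusted p = 0.00261). B3gnt3, which extends core glycans with N-acetylglucosamine, had 21.8 to 26.0 CPM in GFP and 13.6 to 15.9 CPM in Tomato (0.69 ± 0.11, edgeR adjusted p = 0.00358). Both were above the Tomato range in every GFP library. Gcnt1, which makes the branched core of these glycans, had 2.1, 2.15 and 2.22 CPM in GFP libraries, against 14.0, 13.1 and 12.6 CPM in Tomato libraries (-2.62 ± 0.13, edgeR adjusted p = 1.55e-05). St3gal6, a sialyltransferase, had 6.51 to 8.45 CPM in GFP and 15.7 to 16.3 CPM in Tomato (-1.06 ± 0.13, edgeR adjusted p = 0.000994), but did not pass in 1 strand column (adjusted p = 0.626), so this difference is uncertain.

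**Figure D5:**
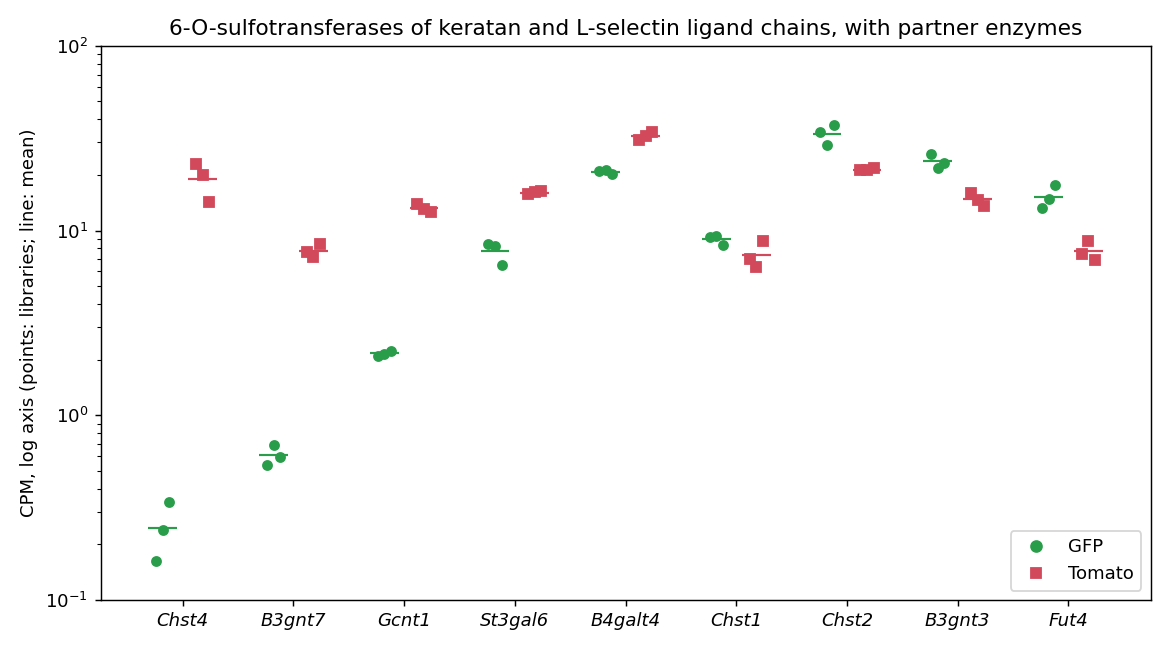
CPM (log axis) of Chst1, Chst2 and Chst4 and of partner enzymes, with 1 point per library and the mean as a line. Chst4, B3gnt7, Gcnt1, St3gal6 and B4galt4 lie lower in GFP, while Chst2, B3gnt3 and Fut4 lie higher in GFP and the Chst1 points overlap.

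Among 14 other chain enzymes 9 were tested, of which 2 were higher and 3 lower (median 0.05). The shares over all genes tested were 13.1% higher and 15.7% lower, or 20.1% and 20.9% with the replicate block. Fam20b, the kinase that phosphorylates the linker xylose, did not pass (0.32 ± 0.12, edgeR adjusted p = 0.0711) but did with the replicate block (adjusted p = 0.0321), which brings the higher genes to 3. Pxylp1, the phosphatase that removes phosphate from the linker xylose, had 94.2, 92.7 and 108 CPM in GFP libraries, against 68.1, 67.8 and 62.8 CPM in Tomato libraries (0.57 ± 0.09, edgeR adjusted p = 0.00347). Dsel, related to Dse, had 71.5 to 89.2 CPM in GFP and 40.6 to 65.7 CPM in Tomato (0.59 ± 0.17, edgeR adjusted p = 0.0338), and its call was lost by library size alone and without any 1 GFP library or Tomato replicate 2 (adjusted p 0.0528 to 0.107). B3gnt7, which adds N-acetylglucosamine to keratan sulfate, had 0.538, 0.686 and 0.591 CPM in GFP libraries, against 7.67, 7.18 and 8.44 CPM in Tomato libraries (-3.68 ± 0.19, edgeR adjusted p = 1.71e-05). B4galt4, a galactosyltransferase of the same chain, had 20.3 to 21.3 CPM in GFP and 30.9 to 34.2 CPM in Tomato (-0.64 ± 0.09, edgeR adjusted p = 0.00172). The remaining lower gene, Extl1, an exostosin-like glycosyltransferase of heparan sulfate, had 0.188, 0.328 and 0.507 CPM in GFP libraries, against 2.68, 2.11 and 1.57 CPM in Tomato libraries (-2.63 ± 0.38, edgeR adjusted p = 0.00197). In all 3, every GFP library lay below every Tomato library.

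Of 24 genes that supply sulfate and nucleotide sugars, 5 were higher and 0 lower (median 0.10). The replicate block brought this to 8 higher and 1 lower. By library size alone 1 was higher and 3 lower, with a median of -0.07 where that of all genes was -0.16. For this list and the degradation genes below, the shares over all genes tested were 13.1% higher and 15.7% lower. They were 20.1% and 20.9% with the block, and 7.24% and 24.7% by library size alone. Papss2, which makes the sulfate donor PAPS, had 42.5, 43.7 and 48.8 CPM in GFP libraries, against 34.7, 29.9 and 29.0 CPM in Tomato libraries, without overlap (0.53 ± 0.10, edgeR adjusted p = 0.00839). Slc35b4, a Golgi carrier of nucleotide sugars, had 72.6 to 80.4 CPM in GFP and 55.4 to 65.9 CPM in Tomato (0.34 ± 0.10, edgeR adjusted p = 0.0297), a call lost by library size alone and without any 1 library other than Tomato replicate 1 (adjusted p 0.0528 to 0.158). Of 16 lysosomal and related degradation genes 1 was higher and 1 lower (median 0.18), with the replicate block 7 were higher and 1 lower, and by library size alone 0 were higher and 2 lower (median 0.02). Glb1, the lysosomal beta-galactosidase, was the lower gene (-0.27 ± 0.09, edgeR adjusted p = 0.047, and 0.0519 to 0.125 without any 1 of the 6 libraries, 0.693 with length and GC offsets).

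Set side by side, the 14 genes of heparan polymerisation and modification by transfer (without the sulfatases) held 7 higher and 1 lower, with a median log2 fold change of 0.38. The 14 of chondroitin and dermatan sulfate held 8 higher and 0 lower, with a median of 0.48. With the replicate block, the chondroitin polymerases and chondroitin and dermatan modification held 5 higher and 0 lower genes each. Heparan 3-O- and 6-O-sulfation then held 2 higher and 2 lower, and the counts of the other heparan classes did not change. The difference between the heparan and the chondroitin genes was not tested. Summed TPM was higher in every GFP library than in every Tomato library for the linker (126 ± 8.31 TPM in GFP and 106 ± 4.98 TPM in Tomato), the heparan polymerases (323 ± 16.5 TPM in GFP and 255 ± 26.3 TPM in Tomato), heparan N- and 2-O-modification (116 ± 11.3 TPM in GFP and 85.6 ± 9.71 TPM in Tomato), the sulfatases (376 ± 50.5 TPM in GFP and 251 ± 49.5 TPM in Tomato), the chondroitin polymerases (385 ± 56.7 TPM in GFP and 275 ± 28.5 TPM in Tomato) and chondroitin and dermatan modification (457 ± 14.3 TPM in GFP and 337 ± 32.9 TPM in Tomato). Compared within replicates of the same number, 28 of the 38 members were higher in GFP in all 3 pairs (34.4% of all genes) and 3 were lower in all 3 (34.8% of all genes).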

How the data were processed

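The 6 libraries held RNA of Podoplanin-sorted cells. Per the labels, each was built with an Illumina TruSeq kit from 150 ng of total RNA. The authors deposited raw counts of reads for each gene, in 1 column for both strands and 1 for each strand. Trim Galore 0.4.3, STAR 2.5.2b and build GRCm38 are named, without their roles, in the submitters' processing notes. The count column for both strands was used, because the strand columns were nearly equal (ratio 1.002 to 1.006), so reads of antisense or overlapping genes cannot be told apart. Of 49671 gene identifiers 49412 matched GENCODE M21, and the other 259 held 0.00762% of all counts.

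Genes were tested with edgeR 4.0.16 in R 4.3.3 (filterByExpr, TMM scaling, robust quasi-likelihood F test, two-sided, no block), and p-values were adjusted by Benjamini-Hochberg over all 15608 genes tested, with a threshold of 0.05. SE was the log2 fold change over the square root of F. CPM used TMM-scaled library sizes, and TPM used the union exon length. The labels do not say whether replicates came from separate animals, so p-values measure only the spread between these samples, which may be technical. No 2 libraries of a group were duplicates (chi-square over degrees of freedom 28.6 to 122). The common biological coefficient of variation was 0.158. On simulated data for this comparison (15645 genes tested, 200 changed), 86% of the 2-fold and 100% of the 4-fold changes were recovered, with 7 false calls. Every simulated gene had the same dispersion, and no change under 2-fold was simulated. The highest fold among the higher members was 1.68 (Chsy3), so these figures do not cover changes of that size.

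Libraries with the same replicate number deviated together (correlations 0.403, 0.108 and 0.347, against -0.392 to 0.0281 for unequal numbers), so the numbers may pair them. The labels do not state this pairing, which rests on the data, and 1 of the 3 correlations is weak. Deviations from a group mean cancel out within the group, so the negative values for unequal numbers follow in part from the positive ones. Main calls, SEs and adjusted p-values therefore come from the fit without the block, and the block is an alternative. With it 3137 genes were higher and 3256 lower, against 2049 and 2456 without it. The block result is given where it changed the call of a member or the count of a list.

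The members and the gene lists were chosen with earlier results of these data known. All 38 members are accounted for, with values per library for those past the threshold at an absolute log2 fold change of at least 0.5 and for the most abundant of each class, plus some chosen after their values were seen. Of other lists, at most 2 higher and 2 lower genes with the smallest adjusted p were named, and Extl1 and Fam20b in addition after their values were seen. The values of 1 gene of these lists are not reported here. The marker gene Ccl21a has no unique symbol and was left out. Class counts, medians and isozyme shares carry no test. The 17 alternatives covered scaling, filters, DESeq2 1.42.0, limma 3.58.1 (voom), the block, 1 strand column, length and GC offsets, and each library left out.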

Additional observations from a re-analysis of the deposited data

How the results depend on the processing

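Of all genes tested, 2049 were higher and 2456 lower in GFP. Scaled by library size alone, 1130 were higher and 3851 lower, so that the share of calls that were higher was 22.7%, against 45.5% in the main scaling. With length and GC offsets the lower calls numbered 1589 and that share was 64.5%. With the replicate block 3137 genes were higher, and with the block and these offsets together 4153. Leaving out 1 library gave 833 to 2392 higher and 1380 to 2793 lower genes. For the 38 members the main counts were 18 higher and 2 lower. By library size alone 8 were higher, and without 1 library 8 to 18 were higher and 2 to 3 lower. With length and GC offsets 23 were higher and 1 was lower, the median of all genes was 0.12 and the members' median of 0.40 lay 0.29 above it. The replicate block gave 20 higher and 3 lower members and changed the call of no member other than Hs3st3b1, Dse and Ust. RLE scaling, DESeq2, voom, the 1 CPM filter and 1 strand column each gave 18 higher and 2 lower. Upper-quartile scaling and no filter each gave 17 and 2. The log2 fold change reversed sign by library size alone for B3gat3 (-0.05), Extl2 (-0.09), Csgalnact2 (-0.08) and Chst11 (-0.08), none of which was called. Without 1 library it ranged over both signs for Extl2 (-0.02 without Tomato replicate 3, up to 0.11), Chst3 (-0.09 without Tomato replicate 2, up to 1.75) and Chst11 (-0.21 without GFP replicate 3, -0.11 and -0.02 without Tomato replicates 1 and 2, up to 0.43). The cause of these changes was not tested. The members under 1 CPM (Ndst3, Hs3st3a1 and Chst3) rest on few reads and did not pass, and whether depth limits them was not tested.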
